A study of Mus musculus with 54 samples.

Results

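Protocadherins are the largest group of the cadherin family, adhesion proteins of the neuronal surface whose extracellular cadherin repeats bind the same protein on a neighbouring cell. The clustered protocadherins (Pcdha, Pcdhb and Pcdhg) lie in 3 tandem arrays on mouse chromosome 18, where each neuron expresses its own combination of them through alternative promoters, and they are known for dendrite self-avoidance, for the spreading of axons and, in the Pcdhg cluster, for the survival of interneurons. Pcdha and Pcdhg transcripts join a variable first exon to shared constant exons, and each Pcdhb gene is a single exon with no such constant part. The non-clustered protocadherins are scattered over the genome, are expressed in patterns that mark brain regions and connected neurons, and signal through longer cytoplasmic tails to actin regulators and other partners.

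The protocadherins were taken as all genes whose symbol in the array's annotation begins with Pcdh. That gave 35 of 18193 genes with a probe set (a group of short probes for 1 transcript) of their own: 22 Pcdhb genes, 1 Pcdhg gene (Pcdhgc4) and 12 non-clustered genes (Pcdh1, Pcdh7, Pcdh8, Pcdh9, Pcdh10, Pcdh11x, Pcdh12, Pcdh15, Pcdh17, Pcdh18, Pcdh19 and Pcdh20). No Pcdha gene had a probe set of its own: 6 probe sets list between 9 and 14 Pcdha genes each and are described apart. The rule for members used names and no measured value, although the group itself was chosen with earlier results of these data known. Of the 35 members, 16 had several probe sets, of which the brightest by its mean over the 54 arrays stands for the gene.

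The study measured RNA on 1-colour arrays in hippocampus, striatum and brainstem of male mice of 6 inbred strains, labelled C57BL6/J, C57BL10/J, C57BLKS/J, C57L/J, BalbC/J and C3H HeJ. No strain carried an engineered allele. Each strain and tissue had 3 arrays, 1 of mice tested from postnatal day 50 for prepulse inhibition (the damping of the startle response by a weak sound that comes first) and 2 of untested mice. All mice were killed on postnatal day 60. Each array held RNA pooled from the tissue of 3 mice, so an array is a pool and its spread understates that between single animals. The 3 tissues may come from the same mice, which the labels do not pair. As background, C57BL6/J and C57BL10/J are closely related, C57BLKS/J and C57L/J are further C57 lines, and BalbC/J and C3H HeJ come from other origins.

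The deposited values are log2 expression values, whose array medians lay between 4.53 and 4.72 in hippocampus, 4.17 and 4.31 in striatum and 4.43 and 4.57 in brainstem. A gene was tested in a tissue where it lay above its array's 40th percentile on at least 3 of the 18 arrays. The tissue labels were borne out by markers. The dopamine receptor Drd2 averaged 12.51 in striatum and 2.465 in hippocampus. In brainstem it averaged 7.01 and was above that line on 18 arrays. The glycine transporter Slc6a5 averaged 12.15 in brainstem, where it was above the line on 18 arrays and on 0 elsewhere. The hippocampal granule-cell marker Prox1 averaged 8.99 in hippocampus and 7.17 in brainstem, so it does not separate those tissues as sharply. A few arrays stood apart. In C3H HeJ brainstem the second untested array had cerebellar markers 4.49 above and brainstem markers 1.47 below the median of its tissue on the log2 scale. In striatum the second untested C57L/J array had cortical markers 1.39 above that median and the tested C57L/J array had them 1.03 below, so results that rest on these arrays are also given without them. Precision is limited by the number of arrays.

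Of the 35 protocadherins, 25 were tested in at least 1 tissue (14 Pcdhb genes, Pcdhgc4 and 10 non-clustered genes) and 23 in all 3. The 10 tested in no tissue were Pcdhb1, Pcdhb5, Pcdhb6, Pcdhb8, Pcdhb10, Pcdhb11, Pcdhb13, Pcdhb18, the epithelial and neuronal Pcdh1 and the endothelial Pcdh12, each above the line on at most 2 of 18 arrays of any tissue. That is a statement about their probes' signal and not about the presence of the transcript. In tissue RNA, fewer cells of a type and less RNA per cell cannot be told apart.

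Pcdh20, Pcdh8 and Pcdh19 are the members that carry the widest hippocampal differences, and the 250 bases before their annotated starts are shown for that reason, from RefSeq on GRCm38.p6, 5′ to 3′ on the gene's own strand. Capitals mark CCAAT or its reverse complement ATTGG, the box bound by the NF-Y factor. The windows are chr14:88471397-88471646 (minus strand) for Pcdh20, chr14:79771313-79771562 (minus strand) for Pcdh8 and chrX:133688994-133689243 (minus strand) for Pcdh19.
Pcdh20: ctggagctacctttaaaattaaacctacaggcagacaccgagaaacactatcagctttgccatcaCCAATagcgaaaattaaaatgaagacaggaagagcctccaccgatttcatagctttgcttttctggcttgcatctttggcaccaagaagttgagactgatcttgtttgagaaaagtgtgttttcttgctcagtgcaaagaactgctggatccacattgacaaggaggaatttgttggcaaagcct
Pcdh8: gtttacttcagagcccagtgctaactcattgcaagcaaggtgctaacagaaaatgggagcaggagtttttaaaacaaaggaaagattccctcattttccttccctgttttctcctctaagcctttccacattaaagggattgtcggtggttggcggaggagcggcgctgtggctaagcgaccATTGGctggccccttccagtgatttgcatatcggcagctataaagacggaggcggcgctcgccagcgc
Pcdh19: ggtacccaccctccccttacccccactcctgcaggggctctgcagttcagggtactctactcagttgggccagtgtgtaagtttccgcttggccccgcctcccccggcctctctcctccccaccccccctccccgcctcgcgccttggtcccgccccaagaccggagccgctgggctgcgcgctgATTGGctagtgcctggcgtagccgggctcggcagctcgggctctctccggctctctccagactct

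The box began 185 bases before the start in Pcdh20, 68 in Pcdh8 and 65 in Pcdh19. The Pcdh20 window was 42.4% G and C with 3 CG pairs, that of Pcdh8 51.2% with 11 and that of Pcdh19 69.2% with 16, against a median of 52.4% and 6 CG pairs over all 32817 promoters in the table. The base composition thus differed widely among the 3 genes that share the hippocampal pattern. Of the 9 non-clustered members with an entry, 8 held CCAAT on either strand (all but Pcdh7), against 33.8% of all promoters. GGGCGG, the core bound by SP1, was in 4 of the 9 (Pcdh10, Pcdh17, Pcdh18 and Pcdh19), against 32.7%. None of the 9 held TGACGTCA, the full cyclic AMP response element (1.55% of all promoters), the E-boxes CAGCTG (13%) and CAGATG (14.5%), or GCTGTCC, a part of the REST element (5.28%). These are matches of letters in a fixed window, and the Pcdh9, Pcdh17, Pcdh20 and Pcdh8 genes all lie on chromosome 14.

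The tissues were compared first, 18 arrays of one against 18 of another, in a limma fit with strain within tissue and behavioural testing as terms and p-values adjusted over 13199 genes by the Benjamini-Hochberg method. At an adjusted p under 0.05, 21 of 25 protocadherins differed between hippocampus and striatum, 20 between hippocampus and brainstem and 21 between striatum and brainstem. The genes compared were those tested in any tissue, so the 20 include Pcdhb19, which was above the line in neither hippocampus nor brainstem. Over all genes the shares were 87.1%, 85.5% and 89.2%, so a call between tissues is the usual case and the counts for protocadherins are no more than that. Called differences of over 2-fold numbered 8, 9 and 12 of the 25, against 21.1%, 25.2% and 33.3% of all genes. Whether the tissues were normalized together is not known. The median of all genes differed by 0.24 between hippocampus and striatum and by -0.31 between striatum and brainstem as deposited. After joint quantile normalization the same medians were -0.01 and -0.10. Calls that held in sign and significance as deposited, after quantile normalization and after median centring numbered 17, 16 and 20, and those over 2-fold in all of them 7, 8 and 11.

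The non-clustered genes took both directions. Between hippocampus and striatum 5 were called higher in hippocampus and 4 in striatum (63.3% and 23.8% of all genes), between hippocampus and brainstem 4 and 4 (40.5% and 45%), and between striatum and brainstem 2 were called higher in striatum and 7 in brainstem (29.1% and 60.2%). All but 1 of these calls kept its direction and significance under each scaling, the exception being Pcdh17 between hippocampus and brainstem.

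Pcdh20, an adhesion protein described in olfactory and cortical circuits, had the widest difference. Its log2 level had a lowest, median and highest array of 11.73, 11.96 and 12.25 in hippocampus, 5.27, 6.03 and 6.83 in striatum and, for brainstem, 6.35, 6.84 and 7.13. The hippocampal arrays lay far above all others and those of striatum and brainstem overlapped. The difference from striatum was 5.93 ± 0.07 (SE), or 60.9-fold (limma adjusted p = 3.28e-42), and that from brainstem 5.12 ± 0.07, or 34.7-fold (3.10e-40).

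Pcdh8, an activity-induced protocadherin that promotes the internalization of cadherins at synapses, had the same order. Its arrays ran from 11.76 to 12.19 (median 12.04) in hippocampus, 7.81 to 9.47 (median 8.87) in striatum and 8.98 to 9.70 (median 9.54) in brainstem. Hippocampus exceeded striatum by 3.33 ± 0.08, or 10.03-fold (adjusted p = 1.36e-30), and brainstem by 2.52 ± 0.08, or 5.74-fold (1.00e-26). No hippocampal array reached down to an array of another tissue.

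Pcdh19, the X-linked gene mutated in an epilepsy of females, formed a graded series without overlap. Its arrays ran from 11.42 to 12.21 (median 11.85) in hippocampus, 9.60 to 10.57 (median 10.41) in brainstem and 8.14 to 9.47 (median 8.60) in striatum. The differences were 1.52 ± 0.08 between hippocampus and brainstem (2.88-fold, adjusted p = 1.40e-19) and 3.24 ± 0.08 between hippocampus and striatum (9.43-fold, 3.43e-30). Striatum lay below brainstem by 3.28-fold (2.29e-21).

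Pcdh18, a gene known for its tie to the adaptor Dab1, was the brainstem gene of the group. Its arrays ran from 7.03 to 8.59 (median 8.08) in brainstem, 4.47 to 5.47 (median 4.88) in hippocampus and 4.36 to 5.28 (median 4.75) in striatum. Brainstem was 8.64-fold above hippocampus (difference of hippocampus minus brainstem -3.11 ± 0.08, adjusted p = 2.52e-30) and 9.69-fold above striatum (-3.28 ± 0.08 for striatum minus brainstem, 3.15e-31). Hippocampus and striatum overlapped and did not pass the test (difference 0.16 ± 0.08, adjusted p = 0.0509). A second probe set, above the line on all 18 brainstem arrays and on 0 of the hippocampal or striatal ones, had smaller differences of the same sign, -0.68 for hippocampus minus brainstem and -0.79 for striatum minus brainstem.

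Pcdh9, which is abundant in neurons and in cells of the oligodendrocyte lineage, was also highest in brainstem. Its arrays ran from 12.71 to 13.32 (median 13.16) in brainstem, 12.22 to 12.57 (median 12.51) in hippocampus and 10.79 to 12.21 (median 11.37) in striatum. Brainstem was 3.32-fold above striatum (striatum minus brainstem -1.73 ± 0.06, adjusted p = 3.48e-27), and hippocampus 2.09-fold above striatum (1.07 ± 0.06, 4.87e-20). The mean of 7 oligodendrocyte markers, all above the line on the arrays, ranged from 13.81 to 14.55 in brainstem, 12.45 to 13.31 in hippocampus and 13.17 to 13.78 in striatum. It too was highest in brainstem but lower in hippocampus than in striatum, unlike Pcdh9. The mean of 11 neuron markers was 13.11 in brainstem, 13.07 in hippocampus and 11.82 in striatum, the order of the Pcdh9 means. Its brainstem arrays (13 to 13.29) and hippocampal arrays (12.99 to 13.17) overlapped. The part of either marker list in the result was not tested.

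The remaining non-clustered genes differed less. Pcdh10, which binds the WAVE actin-regulating complex, averaged 11.59 ± 0.16 (SD) in striatum, 10.64 ± 0.15 in hippocampus and 10.57 ± 0.24 in brainstem (n = 18 arrays each). Striatum stood above both, by 1.93-fold and 2.03-fold, and the lower tissues did not pass the test against each other (limma adjusted p = 0.187). This order depended on the probe set. P-values of single probe sets were adjusted over all of them, of which 86.3%, 84.1% and 87.8% were called between hippocampus and striatum, hippocampus and brainstem, and striatum and brainstem. The fifth brightest of the 6 Pcdh10 probe sets had hippocampus minus striatum at 0.06 (adjusted p = 0.430) and hippocampus minus brainstem at 1.22 (1.58e-19). The fourth had striatum minus brainstem at -0.10 (0.0412) and hippocampus minus brainstem at -0.71 (1.60e-16). Pcdh15, a component of the hair-cell tip link, averaged 6.40 ± 0.35 in hippocampus, 6.33 ± 0.50 in brainstem and 4.81 ± 0.26 in striatum. Striatum was lower by 3.01-fold and 2.87-fold, with some overlap of the arrays against brainstem, and hippocampus and brainstem did not pass the test (adjusted p = 0.554). Its second probe set, above the line on 18 arrays of each tissue, passed in no tissue comparison: hippocampus minus striatum was 0.08 (0.223) and striatum minus brainstem -0.07 (0.249).

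Pcdh11x, the X-linked delta-protocadherin, was lower in hippocampus (8.93 ± 0.17) than in striatum (10.08 ± 0.34) and brainstem (9.93 ± 0.40), by 2.23-fold and 2.00-fold. Pcdh7 rose from hippocampus (11.79 ± 0.20) over striatum (12.07 ± 0.28) to brainstem (12.63 ± 0.19), with overlap in each step. Pcdh17, which has been tied to corticostriatal circuits, averaged 12.21 ± 0.33 in striatum, 11.85 ± 0.08 in hippocampus and 11.63 ± 0.20 in brainstem. Its second probe set put hippocampus above striatum by 0.23 in place of the -0.36 of the brightest, so the order of those tissues depended on the probe set.

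Of the 14 Pcdhb genes, 9 were called higher and 2 lower in striatum than in brainstem, and 9 higher and 2 lower in hippocampus than in brainstem. Pcdhb19, which entered the comparison through its striatal arrays only, is counted as higher in both, and in striatum over hippocampus below. Its call between hippocampus and brainstem (2.30 and 2.15) compares values under the line on all arrays. Pcdhb4, under the line on all brainstem arrays, is also counted as higher in both. The filter favours such calls. Over all genes 29.1% were called higher in striatum and 60.2% higher in brainstem, and 40.5% higher in hippocampus and 45% higher in brainstem. The difference between the Pcdhb genes and the rest was not tested. Under each scaling 9 of the 9 calls higher in striatum than brainstem held, and 6 of the 9 higher in hippocampus than brainstem. Between hippocampus and striatum 4 were called higher in hippocampus, of which 1 held under each scaling, and 7 higher in striatum, of which 7 held.

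The widest Pcdhb differences were these. Pcdhb16 ran from 9.57 to 10.43 (median 9.94) in striatum, 7.67 to 8.81 (median 8.18) in hippocampus and 7.34 to 8.73 (median 8.08) in brainstem. Striatum stood clear of both other tissues, by 3.33-fold over hippocampus (adjusted p = 2.62e-24) and 3.67-fold over brainstem (1.16e-25). Its other probe sets also put striatum highest, and both put brainstem above hippocampus (hippocampus minus brainstem -0.79 and -0.43), which the brightest did not (0.14, adjusted p = 0.0535). Pcdhb7 ran from 7.55 to 8.91 (median 8.53) in striatum, 7.82 to 8.46 (median 8.08) in hippocampus and 6.10 to 6.57 (median 6.38) in brainstem. Here brainstem stood below both, by 3.36-fold against hippocampus (adjusted p = 1.92e-20) and 4.15-fold against striatum (7.38e-23). Pcdhb22 was the reverse, from 7.13 to 7.75 (median 7.36) in brainstem, 5.41 to 6.12 (median 5.75) in hippocampus and 5.32 to 6.96 (median 6.05) in striatum. Brainstem was higher by 3.17-fold (5.37e-24) and 2.36-fold (5.43e-20) with no overlap.

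Pcdhb19 was above the line on 18 of 18 striatal arrays (4.06 to 5.40, median 4.75) and on 0 in hippocampus and brainstem, where it was not well above background. Set against the line of those arrays, striatum was at least 2.63-fold higher than hippocampus and at least 2.71-fold higher than brainstem. Pcdhb4 was above the line on 0 brainstem arrays, so hippocampus was at least 1.17-fold and striatum at least 1.08-fold higher. Pcdhb20 was 2.33-fold higher in striatum than in brainstem, and Pcdhb12 2.05-fold higher in hippocampus and 2.16-fold higher in striatum than in brainstem.

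Among the Pcdhb genes with the highest mean signal, Pcdhb9 averaged 9.68 ± 0.19 in hippocampus, 9.50 ± 0.17 in striatum and 8.94 ± 0.19 in brainstem. Brainstem was called lower than both, and the order of hippocampus and striatum turned with the scaling: hippocampus was 0.18 higher as deposited, -0.07 after quantile normalization and -0.18 after median centring. Pcdhb17 averaged 9.58 ± 0.20 in striatum, 9.31 ± 0.30 in hippocampus and 9.12 ± 0.19 in brainstem, and the call of hippocampus over brainstem (0.20 ± 0.04) did not hold under each scaling.

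Pcdhgc4, the C-type isoform needed for the survival of cortical interneurons, averaged 6.02 ± 0.40 in brainstem, 4.95 ± 0.48 in hippocampus and 4.56 ± 0.51 in striatum. Brainstem was higher by 2.105-fold and 2.75-fold (adjusted p = 4.09e-12 and 4.94e-16), although the arrays overlapped. The call of hippocampus over striatum did not hold under each scaling.

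**Figure D1:**
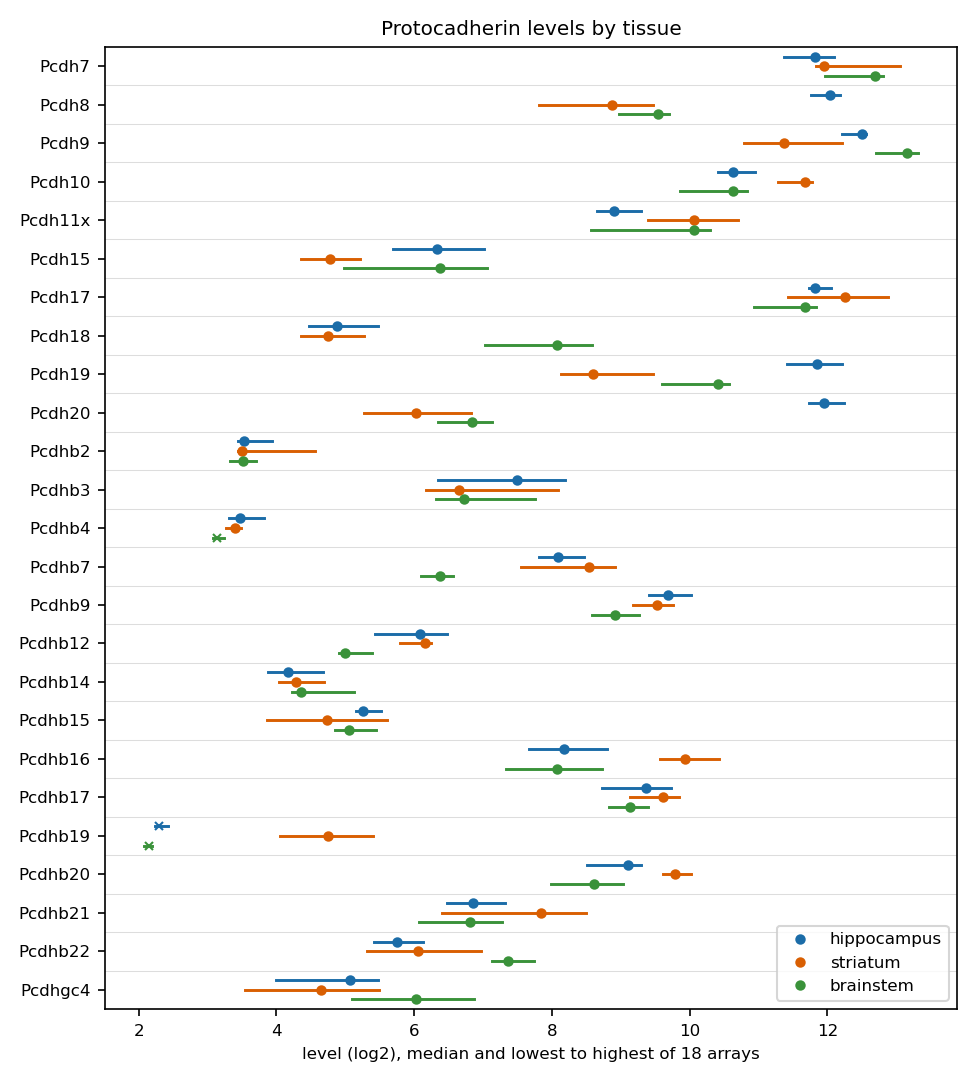
Log2 level of each of the 25 tested protocadherins in hippocampus, striatum and brainstem. Dots are medians and lines run from the lowest to the highest of 18 arrays per tissue, and an x marks a tissue with fewer than 3 arrays above the 40th percentile line. Pcdh20, Pcdh8 and Pcdh19 stand highest in hippocampus, Pcdh18, Pcdh9 and Pcdhb22 in brainstem, and Pcdhb16 and Pcdhb19 in striatum.

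Probe sets that cannot tell the Pcdha genes apart gave a summed view of that cluster. The brightest of the 6 averaged 11.85 ± 0.08 in hippocampus, 11.39 ± 0.15 in striatum and 11.07 ± 0.10 in brainstem (n = 18 arrays each). The next averaged 10.98 ± 0.08, 10.07 ± 0.18 and 10.78 ± 0.09 in the same order, and the third 9.92 ± 0.14, 9.39 ± 0.36 and 9.71 ± 0.18. All 3 were highest in hippocampus, and they disagreed on whether striatum or brainstem was lowest. Of the others, 1 was above the line in no tissue and 1 on 0 brainstem arrays. The last, a dimmer one, was highest in striatum. Its hippocampus minus striatum was -0.70 (limma adjusted p = 1.30e-14) and its striatum minus brainstem 1.47 (5.01e-25), so the tissue order depended on the probe set. None of the 6 passed the test among the 6 strains in any tissue (limma, lowest adjusted p = 0.0527, in brainstem). Against C57BL6/J, 1 probe set was higher in striatum of C57L/J by 0.35 (adjusted p = 0.0489) and 1 in brainstem of BalbC/J by 0.21 (0.0259). Over all genes 4.3% and 12.3% were called in these contrasts. In the first, C57L/J read 11.40 (tested), 11.58 and 11.81 against 11.27, 11.22 and 11.24 in C57BL6/J. The lowest and the highest C57L/J values are the arrays with low and high cortical markers, and this call was not refitted without them.

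The strains were compared within each tissue, 3 arrays to a strain, in a limma fit with strain and testing as terms. In hippocampus 8 of 24 protocadherins differed among the 6 strains at an adjusted p under 0.05, beside 8 of 25 for striatum and 7 of 23 for brainstem. The background over all genes tested was 31.2%, 26.2% and 23%, so the protocadherins differed among strains at close to the background share. The median distance between the highest and the lowest strain mean was 0.34 over the protocadherins in hippocampus, 0.59 in striatum and 0.46 in brainstem, beside 0.27, 0.36 and 0.30 over all genes tested. In all, 3 members differed in every tissue (Pcdhb3, Pcdhb17 and Pcdh20), 4 in 2 tissues (Pcdhb9, Pcdhb20, Pcdhgc4 and Pcdh9) and 6 in 1 (Pcdhb15, Pcdhb16, Pcdhb22, Pcdh11x, Pcdh18 and Pcdh19). The other 12 passed in none: Pcdh7, Pcdh8, Pcdh10, Pcdh15, Pcdh17, Pcdhb2, Pcdhb4, Pcdhb7, Pcdhb12, Pcdhb14, Pcdhb19 and Pcdhb21.

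Against C57BL6/J, the calls in hippocampus, striatum and brainstem numbered 3, 2 and 4 for C3H HeJ (18%, 17.6% and 19.3% of all genes) and 3, 3 and 3 for BalbC/J (15.1%, 7.68% and 12.3%). They numbered 2, 1 and 1 for C57BLKS/J (5.57%, 2.18% and 2.74%), 0, 0 and 1 for C57L/J (4.39%, 4.3% and 3.28%) and 0 in each tissue for C57BL10/J (2.25%, 0.536% and 2.75%). These 5 contrasts share the C57BL6/J arrays. Below, array values of a strain are given with the tested pool first and the untested pools after it.

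Pcdhb3 was the clustered gene with the widest strain differences, and by its mean BalbC/J was highest and C57BLKS/J lowest in every tissue. The fall of C57BLKS/J from C57BL6/J was called in hippocampus only. In striatum these strains were level, with means of 6.267 and 6.273 (limma adjusted p = 0.999). In hippocampus the log2 values were 8.19, 7.95 and 8.11 in BalbC/J, 7.43, 7.10 and 7.50 in C57BL6/J and 6.97, 6.35 and 6.61 in C57BLKS/J. These 3 strains did not overlap, and C57BL10/J (7.05 to 7.50), C57L/J (7.48 to 7.85) and C3H HeJ (7.46 to 7.75) lay between the extremes. BalbC/J exceeded C57BL6/J by 0.74 ± 0.15 (adjusted p = 0.00303), and C57BLKS/J fell by 0.70 ± 0.15 (0.0115), which held in 16 of 18 fits with 1 array left out.

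In striatum Pcdhb3 read 8.06, 7.77 and 8.08 in BalbC/J, 7.10, 7.30 and 7.69 in C3H HeJ and 6.33, 6.23 and 6.26 in C57BL6/J. Neither of the first 2 strains overlapped with C57BL6/J. The differences were 1.70 ± 0.19 for BalbC/J (3.24-fold, adjusted p = 4.60e-05) and 1.09 ± 0.19 for C3H HeJ (2.13-fold, 0.00144). In brainstem it read 7.76, 7.74 and 7.72 in BalbC/J and 6.42, 6.46 and 6.69 in C57BL6/J, a difference of 1.22 ± 0.19 (2.33-fold, 8.74e-04). C3H HeJ read 7.60, 7.23 and 6.52 there, and its difference of 0.59 ± 0.19 (0.0479) overlapped with C57BL6/J. This call held in 3 of 18 fits with 1 array left out. Without the tested C3H HeJ array the difference was 0.37 (adjusted p = 0.178), and without the low array, which is the one with high cerebellar markers, it was 0.87 (5.46e-04). The range over the strains was 1.44, 1.70 and 1.36 in hippocampus, striatum and brainstem (adjusted p = 7.54e-05, 5.42e-05 and 0.00118), and each stayed called with any 1 array left out.

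Pcdhgc4 was low in C3H HeJ. In hippocampus C3H HeJ read 3.999, 4.04 and 4.09, below all 15 other arrays (4.68 to 5.47), and C57BL6/J read 5.47, 5.47 and 5.37. The difference fell by 1.39 ± 0.17 on the log2 scale, or 2.62-fold (adjusted p = 3.08e-05), and held with any array left out. In striatum C3H HeJ read 4.29, 3.72 and 3.54 and was again the lowest strain by its mean, but the 6 strains did not pass the test (range 1.03, adjusted p = 0.177). In brainstem C3H HeJ read 5.20, 5.10 and 5.97 against 6.00, 5.96 and 5.97 in C57BL6/J and 6.87, 6.46 and 6.28 in C57BL10/J, the highest strain. The 6 strains passed (range 1.12, adjusted p = 0.0161) and the contrast of C3H HeJ with C57BL6/J did not (-0.55, adjusted p = 0.0623). The third C3H HeJ value is the array with high cerebellar markers, without which the contrast was -0.85 (adjusted p = 4.12e-04). Without the tested C3H HeJ array the range did not pass (adjusted p = 0.0580).

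Pcdhb20 was low in C57BLKS/J in hippocampus and brainstem and level in striatum. In brainstem C57BLKS/J read 8.04, 7.99 and 8.12, below all other arrays, C57BL6/J read 8.54, 8.60 and 8.64, and BalbC/J read 8.82, 8.81 and 9.03. C57BLKS/J fell by 0.54 ± 0.08 (adjusted p = 0.00186), which held with any array left out, and BalbC/J was higher by 0.30 ± 0.08 (0.0333), which held in 13 of 18. In hippocampus C57BLKS/J read 8.57, 8.80 and 8.51 against 8.81, 9.20 and 9.29 in C57BL6/J, a fall of 0.47 ± 0.11 (0.0174) that held in 15 of 18. The range of 0.58 there (0.00719) was not called without the second untested C57BLKS/J array (0.0551). In striatum all 18 arrays lay between 9.62 and 10.01 (range of means 0.18, adjusted p = 0.780).

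Pcdhb17 was low in C57BLKS/J and C3H HeJ and high in C57BL10/J and C57L/J. In hippocampus C3H HeJ read 8.73, 9.14 and 8.95, C57BLKS/J 8.95, 9.11 and 8.86, and C57BL10/J 9.61, 9.71 and 9.65. The last did not overlap with either of the low strains. The range was 0.71 (adjusted p = 3.82e-04) in hippocampus, 0.43 (0.0220) in striatum and 0.46 (0.00547) in brainstem. In striatum C3H HeJ read 9.19, 9.45 and 9.34 and C57BLKS/J 9.13, 9.53 and 9.51. The brainstem values were 8.998, 8.82 and 9.12 in C3H HeJ and 8.90, 8.87 and 8.85 in C57BLKS/J, and both strains had means under the other 4 in both tissues. Against C57BL6/J, 1 contrast passed, a fall of 0.39 ± 0.11 in C3H HeJ hippocampus (0.0247). It held in 15 of 18 fits with 1 array left out, and the striatal range in 16.

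Pcdhb22 differed in striatum, where BalbC/J read 6.94, 6.40 and 6.96, C3H HeJ 6.26, 6.59 and 6.74, C57BL6/J 6.13, 6.02 and 5.92 and C57BLKS/J 5.84, 5.32 and 5.78. C57BL10/J (5.98 to 6.32) and C57L/J (5.84 to 6.08) lay near C57BL6/J. The range was 1.12 (adjusted p = 0.00257) and held with any array left out, and BalbC/J exceeded C57BL6/J by 0.74 ± 0.17 (0.0170), which held in 13 of 18. In hippocampus and brainstem the strain means of Pcdhb22 lay within 0.26 and 0.27 of each other and did not pass (0.471 and 0.539).

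Pcdhb15 differed in striatum, where C57BL6/J read 4.74, 5.11 and 5.61 and C3H HeJ 3.87, 4.62 and 4.75. These overlapped, and the fall of 0.74 ± 0.18 (adjusted p = 0.0130) and the range of 0.74 (0.0307) rested on spread arrays. C57L/J read 4.73, 5.39 and 5.29 there, and the range was not called without its first (0.0635) or its second untested array (0.0550). In all it held in 13 of 18 fits with 1 array left out, and the contrast in 16. Pcdhb9 ranged over 0.43 in hippocampus (adjusted p = 0.00206) and 0.46 in brainstem (0.00792), highest in C57L/J in both, and did not pass in striatum (0.33, adjusted p = 0.114). Without the second untested C57L/J striatal array it passed there too (0.41, 0.0336). In brainstem it was higher than in C57BL6/J by 0.34 ± 0.09 in C57L/J (0.0497) and by 0.30 ± 0.09 in BalbC/J (0.0383), which held in 6 and 11 of 18 fits with 1 array left out. Pcdhb16 ranged over 0.48 in striatum (0.0300), where BalbC/J was higher than C57BL6/J by 0.45 ± 0.11 (0.0265). These held in 10 and 14 of 18 fits with 1 array left out. In hippocampus C3H HeJ exceeded C57BL6/J by 0.44 ± 0.14 in the same gene (0.0402), which held in 12 of 18 fits with 1 array left out, while the 6-strain test did not pass (0.0860).

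**Figure D2:**
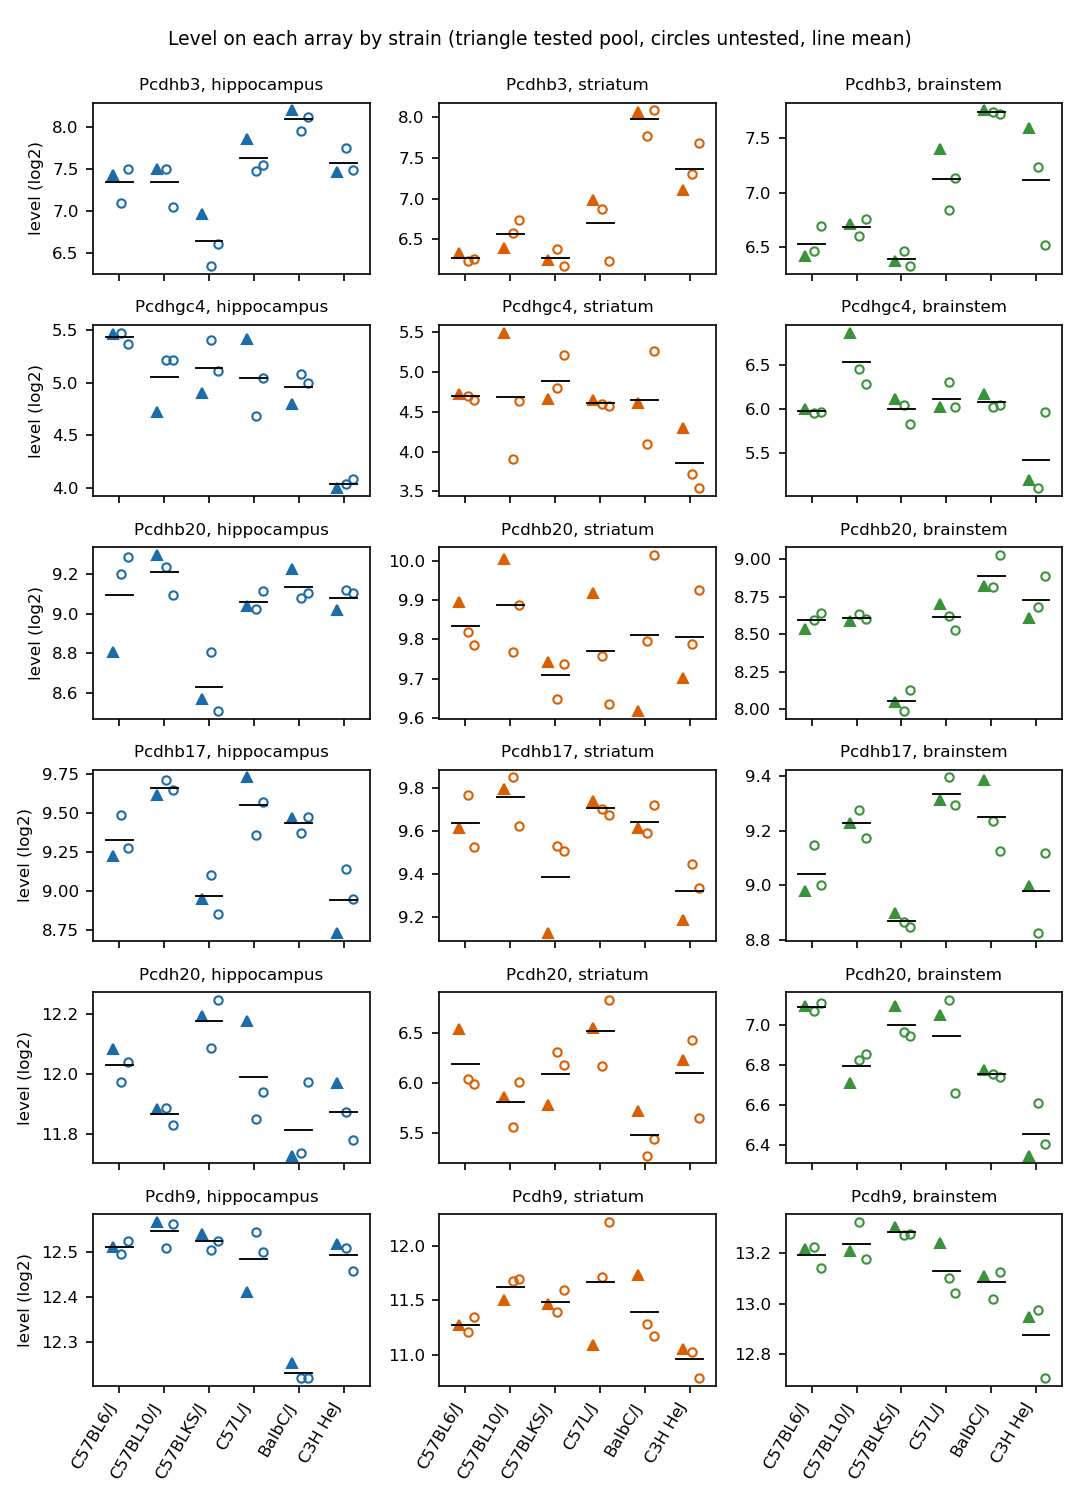
Log2 level on every array for Pcdhb3, Pcdhgc4, Pcdhb20, Pcdhb17, Pcdh20 and Pcdh9 by strain, with 1 column per tissue. Triangles are tested pools, circles untested pools and lines the strain means of 3 arrays. BalbC/J stands highest for Pcdhb3 in each tissue, and the 3 C3H HeJ hippocampal arrays of Pcdhgc4 (3.999, 4.04 and 4.09) lie below all others of that tissue.

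Among the non-clustered genes Pcdh20 differed in every tissue, with a different order of strains in each. In brainstem C57BL6/J read 7.09, 7.07 and 7.11 and C3H HeJ 6.35, 6.61 and 6.40, a fall of 0.64 ± 0.11 (adjusted p = 0.00137) that held with any array left out. In hippocampus the strain means ran from 11.81 in BalbC/J to 12.18 in C57BLKS/J (range 0.36, adjusted p = 0.0166), and this was not called without the second untested C57BLKS/J array (0.0631). In striatum BalbC/J read 5.72, 5.27 and 5.44 and C57L/J 6.55, 6.17 and 6.83, the lowest and the highest strain, which did not overlap. That range of 1.04 (0.0431) was lost without the tested C57L/J array (0.0604) or the second untested one (0.0892), and it held in 5 of 18 fits with 1 array left out.

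Pcdh9 had small and tight differences. In hippocampus BalbC/J read 12.25, 12.22 and 12.22 and every other array lay between 12.41 and 12.57, a fall of 0.28 ± 0.04 from C57BL6/J (adjusted p = 1.44e-04). In brainstem C3H HeJ read 12.95, 12.98 and 12.71 against 13.21, 13.23 and 13.14 in C57BL6/J, a fall of 0.32 ± 0.07 (0.00458). The lowest of these is the array with high cerebellar markers, and without it the fall was 0.24 (0.00744). The mean of the 7 oligodendrocyte markers on the BalbC/J hippocampal arrays lay 0.38, 0.23 and 0.51 below the median of the tissue, while those of C57BL6/J lay 0.35, 0.10 and 0.24 above it, and 6 of the 7 markers differed among strains in hippocampus. In brainstem the C3H HeJ arrays lay 0.11, 0.02 and 0.57 below that median. The part of these markers in the Pcdh9 result was not tested. In striatum Pcdh9 did not pass (range 0.71, adjusted p = 0.111), and without the tested C57L/J array it did (1.03, 0.00437). That fit keeps the second untested C57L/J array, which had high cortical markers.

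Pcdh18 differed in striatum, with 5.12, 5.15 and 5.28 in C57BLKS/J, 4.79, 4.76 and 4.73 in C57BL6/J and 4.59, 4.36 and 4.75 in BalbC/J. C57BLKS/J stood above all other arrays, by 0.42 ± 0.09 over C57BL6/J (adjusted p = 0.0326), and the range was 0.62 (0.00443). The contrast held in 12 of 18 fits with 1 array left out and the range in 18. In brainstem, where the gene has its highest level, C3H HeJ read 7.81, 8.06 and 7.03 and C57BL6/J 8.42, 8.47 and 8.35, a fall of 0.78 ± 0.21 (0.0228). Without the array with high cerebellar markers, which is the lowest of these, the fall was 0.48 (0.0492), and without any 1 of the C57BL6/J arrays it did not pass. The 6-strain test did not pass there (0.110).

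Pcdh11x ranged over 0.79 in striatum (adjusted p = 0.0184), from 9.40, 9.62 and 9.87 in BalbC/J to 10.49, 10.48 and 10.27 in C57BL10/J, which did not overlap. In brainstem the same strains did not overlap either: BalbC/J read 9.47, 9.73 and 9.91 and C57BL10/J 10.23, 10.29 and 10.08. The brainstem range of 0.79 did not pass (0.135), and without the array with high cerebellar markers, which read 8.57, it was 0.50 and passed (0.0215). Pcdh19 ranged over 0.37 in hippocampus (0.0418), from C57L/J (11.81, 11.42 and 11.78) to BalbC/J (11.92, 11.99 and 12.21), and held in 5 of 18 fits with 1 array left out. Pcdh8 was 0.23 ± 0.06 higher in BalbC/J than in C57BL6/J hippocampus (0.0251), with 12.13, 12.11 and 12.19 against 11.76, 12.07 and 11.90, while its 6-strain test did not pass (0.0829). The Pcdh8 contrast held in 14 of 18 fits with 1 array left out, and without the tested C57BL6/J array it was 0.15 (adjusted p = 0.119).

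Pcdh7, Pcdh10, Pcdh15 and Pcdh17 passed no 6-strain test with all arrays. Their ranges of strain means lay between 0.06 (Pcdh17, hippocampus) and 0.81 (Pcdh15, brainstem, adjusted p = 0.231). Without the second untested C3H HeJ brainstem array, Pcdh15 (0.81, adjusted p = 0.0180) and Pcdh10 (0.46, 0.00150) passed in brainstem. Without the second untested C57L/J array, Pcdh10 passed in striatum (0.34, 0.0147, against 0.0892 with all arrays).

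The arrays that stood apart also decided some contrasts with C57BL6/J. Without the tested C57L/J striatal array, C57L/J was higher there for Pcdh7 (0.62, limma adjusted p = 0.0405), Pcdh8 (1.03, 0.0302), Pcdh9 (0.72, 0.0105) and Pcdh19 (0.92, 0.0273), and Pcdhb17 was lower in C3H HeJ (-0.31, 0.0493). That fit keeps the second untested C57L/J array, which had high cortical markers. With either untested C57L/J array left out in its place, these C57L/J differences did not pass. Without the second untested C57L/J striatal array, Pcdhb9 was higher in C3H HeJ (0.28, 0.0441). Without the second untested C3H HeJ brainstem array, further contrasts passed in brainstem for Pcdhb3, Pcdhb17, Pcdhgc4, Pcdh10, Pcdh11x, Pcdh18 and Pcdh20. Among these were Pcdh10 in C57BL10/J (-0.46, 0.00139), Pcdhgc4 in C57BL10/J (0.56, 0.00873) and Pcdhb3 in C57L/J (0.60, 0.00795).

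**Figure D3:**
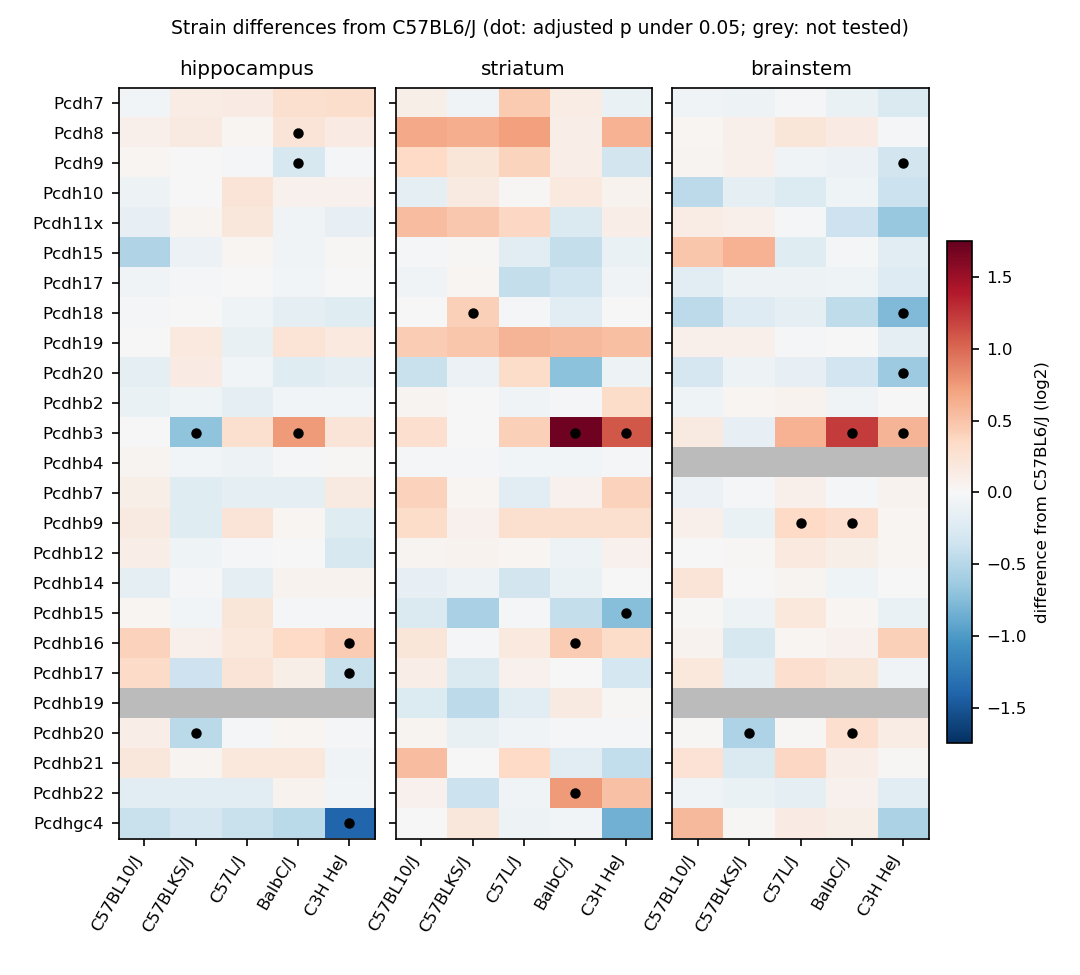
Difference of each strain from C57BL6/J on the log2 scale for the tested protocadherins, with 1 panel per tissue. Colour gives the size and sign, a dot an adjusted p under 0.05 and grey a gene not tested in that tissue. Pcdhb3 in BalbC/J is called in each tissue (0.74, 1.70 and 1.22), and the deepest called fall shown is that of Pcdhgc4 in C3H HeJ hippocampus (-1.39).

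Other probe sets of the same genes did not always give the same strain differences. Their p-values were adjusted over all probe sets tested, of which 32.7%, 23.9% and 22.3% differed among the strains in hippocampus, striatum and brainstem. Whether sequence differences between strains lie under any probe was not tested, and Pcdhb3, Pcdhb9, Pcdhb17, Pcdhb20, Pcdhb22 and Pcdhgc4 have no second probe set to compare.

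Pcdh10 is the clearest case. Its brightest probe set gave C3H HeJ minus C57BL6/J differences of 0.08, 0.07 and -0.37 in hippocampus, striatum and brainstem, none of them called. The fifth brightest of its 6 probe sets gave 1.23 (adjusted p = 5.71e-05), 1.10 (3.22e-05) and 0.66 (0.0194), higher in C3H HeJ in each tissue. The second brightest was also called higher in hippocampus (0.33, 0.00875) and striatum (0.39, 0.00909) but not in brainstem (0.04).

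For Pcdh9 the probe sets disagreed in direction. Where the brightest was lower by 0.28 in BalbC/J hippocampus and by 0.32 in C3H HeJ brainstem, the second brightest gave 0.15 (adjusted p = 0.262) and 0.21 (0.0504), and it was called higher in BalbC/J brainstem (0.36, 0.00338) and C3H HeJ hippocampus (0.27, 0.0301). The third was below C57BL6/J in both strains and each tissue and was called in C3H HeJ striatum (-0.72, 0.0434). So the sign of a Pcdh9 strain difference depended on the probe set.

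For Pcdh20 the second probe set differed among the strains in striatum (0.0314), not in hippocampus (0.390) or brainstem (0.272), and its C3H HeJ difference in brainstem was -0.25 (0.0883) with the same sign. For Pcdhb16 the second brightest probe set had wider differences than the brightest: a range of 1.48 in striatum (8.44e-06), with BalbC/J 0.82 and C3H HeJ 0.89 above C57BL6/J, and 0.76 in brainstem (0.00845). For Pcdhb21 the second probe set differed among the strains in hippocampus (0.0442), striatum (0.00577) and brainstem (0.00354) with C57BL10/J highest in each, where the brightest passed in none.

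**Figure D4:**
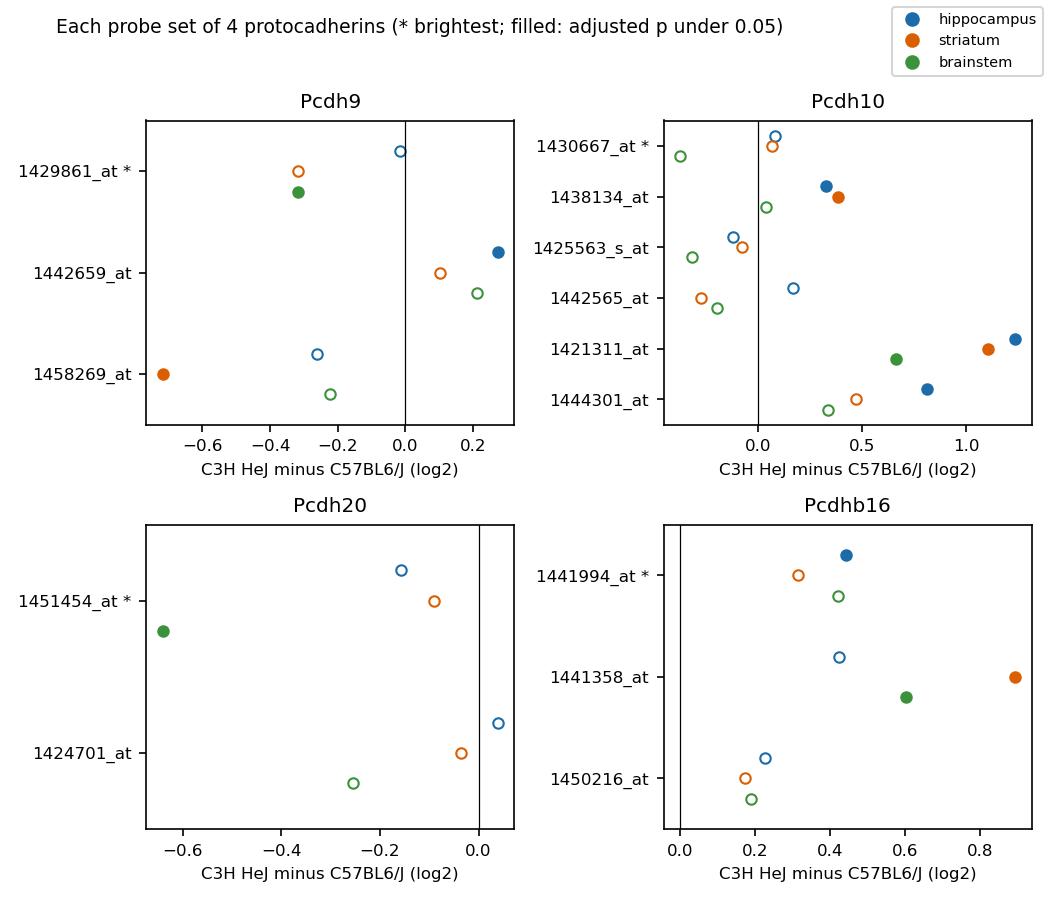
C3H HeJ minus C57BL6/J on the log2 scale for every tested probe set of Pcdh9, Pcdh10, Pcdh20 and Pcdhb16 in each tissue. An asterisk marks the brightest probe set and a filled point an adjusted p under 0.05 over all probe sets. For Pcdh10 the brightest lies near 0 in hippocampus (0.08) and striatum (0.07) while another lies at 1.23 and 1.10.

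The strain differences were tested for a change between tissues with an interaction term over all 54 arrays. It was called for 3 of 25 protocadherins, against 17.4% of all genes: Pcdhb20 (F = 3.48, adjusted p = 0.0233), Pcdhb22 (F = 3.43, 0.0245) and Pcdh20 (F = 3.09, 0.0391). Pcdhb3 (0.0736), Pcdhb9 (0.0689) and Pcdh9 (0.0921) came next and did not pass, and Pcdhgc4 was further off (0.520), so a tissue-dependent strain difference was not shown for these.

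Prepulse-inhibition testing was not associated with a protocadherin call. In the limma fit 0 of 25 differed between tested and untested pools (0 at an unadjusted p under 0.05), where over all genes 0% were called and 3.58% passed unadjusted. The tested pools were the higher for 15 of 25, and the differences ran from -0.15 ± 0.09 (SE) for Pcdhb21 to 0.12 ± 0.07 for Pcdhb3. With 1 tested pool per strain and tissue, the testing term rests on the average over strains.

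Genes that act on or with protocadherins were counted beside them, with no test of the lists. Regulators of the clusters, such as Ctcf, the cohesin subunits and Smchd1, passed the 6-strain test in 1, 3 and 2 of 16 in hippocampus, striatum and brainstem. Their median ranges were 0.21, 0.24 and 0.22. Over all genes tested 31.2%, 26.2% and 23% passed, with median ranges of 0.27, 0.36 and 0.30. Stag1, a cohesin subunit, passed in each tissue, with ranges of 0.28 (adjusted p = 0.00967), 0.89 (3.63e-04) and 0.92 (0.0248), and C3H HeJ was highest in striatum and brainstem. Trim28, a corepressor that recruits Setdb1, passed in striatum (0.52, 0.0168) and brainstem (0.40, 0.0415), also highest in C3H HeJ, and Pds5b, a cohesin-associated factor, in striatum (0.28, 0.0241). Between tissues 14, 13 and 14 of the 16 regulators were called, beside 87.1%, 85.5% and 89.2% of all genes. Of these, 13 were higher in hippocampus than in striatum (63.3% of all genes), with a median difference of 0.32 beside 0.24 over all genes.

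Intracellular partners and processing enzymes passed in 2 of 21, 2 of 20 and 4 of 20, beside 31.2%, 26.2% and 23% of all genes tested. The widest called were Dvl1, a Wnt pathway scaffold, in brainstem (range 0.48, adjusted p = 2.26e-04) and striatum (0.36, 0.0300), Psen2, of the gamma-secretase that cleaves protocadherins, in hippocampus (0.33, 0.0214), Ptk2b, a kinase inhibited by the clustered proteins, in striatum (0.32, 0.0217), and Cyfip2, of the WAVE complex, in brainstem (0.30, 9.61e-05). Other cadherins passed in 5 of 10, 3 of 10 and 0 of 9 for the atypical and 3 of 14, 5 of 13 and 2 of 15 for the classical ones. The shares of all genes beside them are the same as for the partners. Cdh7 had ranges of 2.78, 2.18 and 1.86, all called.

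The genes that lie beside the clusters on chromosome 18 were read by order in the RefSeq table. Of the 7 tested before the clusters 2, 3 and 1 passed in hippocampus, striatum and brainstem, and of the 7 tested after them 3, 4 and 4. Over all genes tested the shares were 31.2%, 26.2% and 23%. Taf7, an intronless gene between the Pcdhb and Pcdhg arrays, was the 1 tested gene there, and C3H HeJ was its lowest strain in each tissue, as it was for Pcdhgc4. Its means in C3H HeJ and in BalbC/J, the highest strain, were 4.07 and 5.45 in hippocampus (range 1.39, adjusted p = 0.00890) and 4.54 and 7.97 in brainstem (3.43, 5.00e-08). In striatum its range of 0.54 did not pass (0.0663). Arap3, after the clusters, was lowest in C3H HeJ too (ranges 2.24, 1.49 and 2.26), and Gnpda1 was highest there (0.93, 0.46 and 0.48). The neighbours named here, picked after their values were seen, thus moved both ways in that strain.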

How the data were processed

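The series holds 54 Affymetrix mouse expression arrays, 1 for each pool of 3 mice. The authors deposited 1 log2 expression value per probe set and array, and the submitters' processing notes name R 2.6.1, affy 1.16.0, RMA, GCRMA 2.10.0 and limma 2.12.0. Which of RMA and GCRMA made the values, and whether the tissues were normalized together, remain points not given in the sources used here. Both steps compress or shift low values and set levels relative to the other arrays of a batch.

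Control probe sets (64) were left out. Of the other 45037, 34945 carried 1 gene symbol in the platform annotation, 932 several and 9160 none here. Each gene was read from its brightest probe set by the mean of 54 arrays. A gene had to exceed the 40th percentile of 3 or more arrays of a tissue, and was then tested with limma 3.58.1 in R 4.3.3 (lmFit and eBayes with a trend), on strain and testing within a tissue, and on strain within tissue with testing centred within tissue across tissues. P-values were adjusted by Benjamini-Hochberg over all genes tested, and 0.05 was the threshold. The scripts were tested on simulated data. A bound against a tissue where a gene was on no array above the line sets the mean of the bright tissue against, per array, the higher of the line and the gene's own value.

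The protocadherins and the other gene lists were chosen with earlier results of these data known. Named are all tested non-clustered members, the clustered members called among strains (in full for the 6 with the widest range), the 3 brightest Pcdhb genes, the 5 widest called differences of each tissue contrast, members called in the interaction, up to 4 genes of each companion list and members whose probe sets disagree. Stag1, Taf7, Arap3, Gnpda1 and Cdh7 among the other genes, and Pcdhb12 and Pcdhb21, were also picked out after their values were seen. All 35 members matched a RefSeq entry, and promoter windows were used for 9.

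By the median, same-numbered arrays of different tissues deviated together little or not at all. The median correlation of 18 pairs was 0.01 for hippocampus and striatum, 0.11 for hippocampus and brainstem and -0.01 for striatum and brainstem. It was over 0.1 in 4, 10 and 2 pairs, so hippocampus and brainstem leaned to weakly positive values. The numbers were not taken as pairs. Labels do not say whether pools share animals or litters, so p-values measure the spread between these pools.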

Additional observations from a re-analysis of the deposited data

Results flagged for a closer look

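Strain differences changed between tissues, by the interaction term of the limma fit over 54 arrays, for 3 protocadherins. For Pcdhb20 the adjusted p was 0.0233. C57BLKS/J lay below C57BL6/J by 0.47 in hippocampus and 0.54 in brainstem, and in striatum the strain means spanned 0.18. The call held in 51 of 54 fits with 1 array left out. For Pcdhb22 the adjusted p was 0.0245, with a range of 1.12 in striatum beside 0.26 in hippocampus and 0.27 in brainstem, and the call held in 50 of 54. For Pcdh20 it was 0.0391. C3H HeJ was lowest in brainstem and BalbC/J in hippocampus and striatum, and the call held in 36 of 54, lost among others without the second untested C57L/J striatal array or the second untested C3H HeJ brainstem array. Over all genes tested 17.4% passed this test.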

How the results depend on the processing

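Of the called strain and tissue differences, 2 and 6 reversed under at least 1 setting. With the next brightest probe set, Pcdh9 turned to 0.15 (BalbC/J, hippocampus) and 0.21 (C3H HeJ, brainstem), Pcdh17 to 0.23 (hippocampus minus striatum) and -0.18 (striatum minus brainstem), and Pcdhb14 to 0.0586 (hippocampus minus brainstem). Under quantile normalization and median centring, hippocampus minus striatum turned to -0.071 and -0.18 for Pcdhb9 and to -0.0519 and -0.24 for Pcdhb4, and under quantile normalization striatum minus brainstem turned to 0.0239 for Pcdhb15. The cause was not tested.

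Counts of called protocadherins against C57BL6/J are small and moved as follows. With the next brightest probe set, C57L/J and C3H HeJ in hippocampus came to 1 and 5, C57BL10/J, C57L/J and C3H HeJ in striatum to 1, 1 and 4, C57BL10/J, BalbC/J and C3H HeJ in brainstem to 1, 5 and 1, and the interaction to 5. With the mean of probe sets, C57BLKS/J and C3H HeJ in striatum came to 0 and 5. C57L/J in hippocampus came to 1 under quantile normalization and median centring. C57BLKS/J in striatum came to 0 with no filter and with the stricter filter (60th percentile). C57L/J in brainstem came to 0 with no filter, quantile normalization and median centring, and BalbC/J in brainstem to 1 under quantile normalization.

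Across tissues, arrays of the same strain, testing and number were set as a block, although the numbers were not taken as pairs. The tissue counts were then 22, 20 and 21, the interaction 3 and testing 0. Within a tissue there was no block, and testing status with array number stood as a term in place of testing alone. The 6-strain counts were then 8, 7 and 7 in hippocampus, striatum and brainstem. C57L/J in brainstem came to 0. The other contrasts gave 0, 2, 0, 3 and 4 (C57BL10/J, C57BLKS/J, C57L/J, BalbC/J and C3H HeJ) in hippocampus, 0, 1, 0, 3 and 3 in striatum and 0, 1, 2 and 3 in brainstem (without C57L/J).

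Leaving out 1 array at a time, the 6-strain counts ran from 5 (without the second untested C57BLKS/J) to 12 in hippocampus, 5 (without the tested C3H HeJ or the first untested C57BLKS/J) to 10 in striatum and 6 to 10 in brainstem. Counts against C57BL6/J ran, for C57BL10/J, C57BLKS/J, C57L/J, BalbC/J and C3H HeJ, 0 to 1, 0 to 3, 0 to 1, 2 to 5 and 1 to 4 in hippocampus. In striatum they ran 0 to 0, 0 to 1, 0 to 4, 1 to 3 and 2 to 3, with the 4 without the tested C57L/J array. In brainstem they ran 0 to 2, 1 to 1, 0 to 4, 1 to 7 and 2 to 5, with 2, 4 and 7 for C57BL10/J, C57L/J and BalbC/J without the second untested C3H HeJ array. Tissue counts ran 21 to 23, 20 to 21 and 21 to 22, the interaction 1 to 7 (7 without the tested C57L/J striatal array) and testing 0 to 0. All calls between tissues held with each array left out. Signals near the line, as for Pcdhb2, Pcdhb4 and Pcdhb14, limit what can be seen.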
